A study of Mus musculus with 40 samples.

Results

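The genes described here are those of the DNA damage checkpoint and of DNA repair, chosen as a named set of 40 genes of homologous recombination, the Fanconi anemia pathway, the checkpoint and break sensing, end joining, mismatch repair, direct reversal, and base excision repair. Of these, 39 had a probe set that named 1 gene among 18193 genes measured in this way, and Xrcc2 was not measured; the member named H2afx appeared under its current symbol, H2ax. RNA levels were read on 40 Affymetrix mouse arrays, 1 per sample. All tumors and lines came from mice in which the hGFAP-cre transgene, active in neural cells, recombined p53. Cell lines from early biopsies (2) and from end-stage tumors (11), both grown as spheres in neural stem cell medium, and 11 malignant gliomas came from p53 R172H CKO mice (hGFAP-cre+;p53LSLR172H/floxE2-10), which carry 1 missense and 1 null allele in recombined cells. A further 11 malignant gliomas came from p53-null CKO mice (hGFAP-cre+;p53floxE2-10/floxE2-10). Of the normal cortex samples, 3 came from Cre-positive mice (hGFAP-cre+;p53floxE2-10/+) and 2 from Cre-negative mice (hGFAP-cre-;p53floxE5-6/floxE5-6). The age of the mice was not given in the labels, and the p53 gene itself was not analysed here, so the labels were not checked against the targeted gene.

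Cells answer a DNA break by sensing it through the Mre11a-Rad50-Nbn complex and the kinases Atm and Atr, which signal through Chek2 and Chek1 to p53 and to the cell cycle machinery. Breaks are then joined directly by the Ku proteins, Prkdc and Lig4, or copied from the sister chromatid by homologous recombination, which needs Brca1 and Brca2 and works in cells that are replicating their DNA. Crosslinks between strands are handled by the Fanconi anemia proteins, wrong base pairs by mismatch repair, damaged single bases by base excision repair, and alkylated guanine by Mgmt, whose silencing is known in human glioblastoma for its bearing on temozolomide treatment.

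Values are the deposited log2 RMA values, so that a difference of 1 is a fold change of 2. Arrays of the same group correlated between 0.85 and 0.99. Against the cortex mean, the median over 37 cell cycle genes (the cell cycle score, a list that holds no member) lay between 2.32 and 5.62 in end-stage lines, between 1.38 and 5.65 in R172H gliomas, between 1.25 and 5.49 in p53-null gliomas, and between -0.03 and 0.11 in cortex. A neuron score over 22 neuronal genes was above -1 in 3 gliomas, arrays 38 and 45 of the p53-null group and array 58 of the R172H group, and was between -7.10 and -2.46 in the other 19. These 3 gliomas, called neuron-rich below, are set apart where they change a result. The study describes histological admixture of normal tissue in 1 R172H primary tumor, which the labels do not identify. In whole tissue, fewer cells of a type and less RNA per cell cannot be told apart.

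Most of the repair and checkpoint genes were higher in gliomas than in cortex. Of the 39 members, 32 rose, 0 fell and 7 did not pass the test (limma, adjusted p under 0.05 over all genes), against 22.6% of all genes higher and 24.7% lower. The median difference over the members was 1.17, against -0.03 over all genes. In 11 members every glioma exceeded every cortex, against 3.91% of all genes: Palb2, Rad51ap1, Rad54l, Exo1, Atr, Chek1, Clspn, Mre11a, Xrcc6, Ung and Apex1. The largest differences were those of Rad51ap1, Exo1, Chek1 and Brca1, between 3.49 and 4.42. The median over the members was lowest in the neuron-rich gliomas, at 0.09 in array 45, 0.28 in array 58 and 0.42 in array 38, and lay between 0.76 and 2.15 in the other gliomas. Without these 3 tumors, 34 members were higher, against 24.7% of all genes. In the same comparison all 37 cell cycle genes and 11 of 16 microglia and macrophage markers were higher, and 21 of 22 neuronal genes were lower; the part of these cells in the member values was not tested. Before adjustment 34 members passed, against 53.1% of all genes, and the methods' t-test gave 31 after adjustment, against 45.7%.

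**Figure D1:**
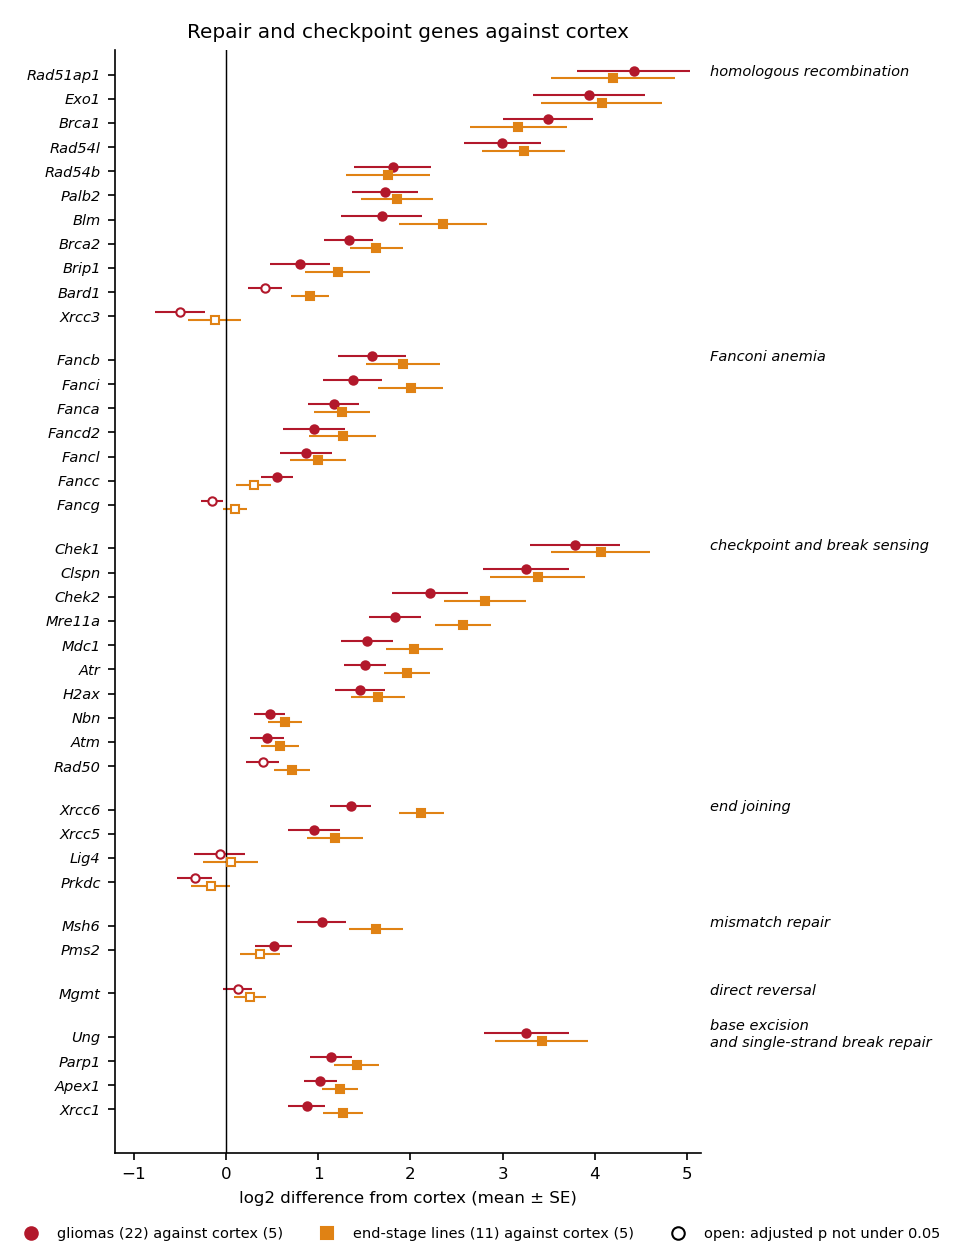
Log2 difference from cortex (x axis, mean ± SE) of the 39 members (rows, grouped by role) in the 22 gliomas (circles) and the 11 end-stage lines (squares), with open symbols where the adjusted p was not under 0.05. Most members lie right of 0, up to 4.42 for Rad51ap1, while Xrcc3, Fancg, Prkdc, Lig4 and Mgmt have open symbols in both comparisons, Xrcc3 at -0.50 in gliomas.

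Among the genes of homologous recombination, 9 of 11 rose in gliomas. Rad51ap1, a DNA-binding protein of homologous recombination, had values of 5.27 to 9.86 (median 8.77) in R172H gliomas and 4.70 to 10.04 (median 8.79) in p53-null gliomas, against 3.79, 4.34, 4.05, 3.91 and 3.97 in the 5 cortices. All 22 gliomas were above all cortices, and the lowest tumors were arrays 45 and 58. The mean was 8.43 ± 1.38 in gliomas (SD, n = 22) and 4.01 ± 0.21 in cortex (SD, n = 5), a difference of 4.42 ± 0.62 (SE) or 21.4-fold, with an adjusted p of 4.2e-07. Exo1, the exonuclease that resects broken ends, had values of 3.51 to 9.02 (median 7.30) in R172H gliomas and 3.99 to 8.45 (median 6.80) in p53-null gliomas, against 2.98, 2.76, 2.97, 3.28 and 2.78 in cortex. It was 15.3-fold higher, with an adjusted p of 1.91e-06 and no overlap. Brca1, which promotes resection and recruits the recombination proteins, was 11.2-fold higher, with glioma values between 4.94 (array 45) and 10.50 (array 64) and cortex values between 4.36 and 5.33, so that 21 of 22 gliomas exceeded every cortex. The translocase Rad54l was 7.99-fold higher. Smaller differences were found for Rad54b (1.81), Palb2, which links Brca1 to Brca2 (1.73), the helicase Blm (1.69), Brca2, which acts with Palb2 (1.33), and the helicase Brip1 (0.81).

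In homologous recombination 2 genes did not pass. Bard1, which forms a ubiquitin ligase with Brca1, differed by 0.43 (95% interval 0.05 to 0.81, adjusted p = 0.0575), and 14 of 22 gliomas exceeded every cortex. It passed under 5 alternatives, with an adjusted p of 0.0274 and a difference of 0.49 without the neuron-rich gliomas, so its call is not settled. Xrcc3, which acts in the later steps of recombination, had values of 4.10 to 6.43 (median 5.10) in R172H gliomas and 4.18 to 5.88 (median 4.99) in p53-null gliomas, against 5.95, 5.47, 5.20, 4.76 and 6.04 in cortex. Tumor and cortex values overlapped, and the difference of -0.50 ± 0.27 (SE) did not pass (adjusted p = 0.127). A second probe set of Xrcc3, not used for the gene because its mean was slightly lower, fell by 0.76 with an adjusted p of 0.000728 over all probe sets, so the call for this gene depends on the probe set.

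In the Fanconi anemia pathway, 6 of 7 genes rose. The largest difference was that of Fancb, a subunit of the core complex, with values of 4.75 to 7.02 (median 6.04) in R172H gliomas and 4.01 to 6.80 (median 5.86) in p53-null gliomas, against 4.29, 4.67, 4.18, 4.19 and 4.75 in cortex. The lowest tumors, the neuron-rich arrays 45, 38 and 58, did not exceed the highest cortex, and the other 19 gliomas did. The difference was 1.59 ± 0.37 (SE), 3.01-fold, with an adjusted p of 0.000501. Fanci (1.37), which is ubiquitinated together with Fancd2 at crosslinks, the core subunit Fanca (1.17), Fancd2 itself (0.95), the ubiquitin ligase Fancl (0.87) and the core subunit Fancc (0.55) were also higher. Fancc had values of 6.09 to 7.54 (median 6.61) in R172H gliomas and 5.99 to 7.19 (median 6.82) in p53-null gliomas, against 6.53, 6.21, 6.09, 5.73 and 6.32 in cortex, and 17 of 22 gliomas exceeded every cortex. Fancg, a further core subunit, did not pass, at -0.15 with a 95% interval of -0.39 to 0.09, and 1 of 22 gliomas exceeded every cortex.

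Of the checkpoint and break sensing genes, 9 of 10 rose. Chek1, the effector kinase of Atr, had values of 5.55 to 9.88 (median 8.57) in R172H gliomas and 5.82 to 9.59 (median 8.10) in p53-null gliomas, against 4.38, 4.54, 4.13, 4.91 and 4.27 in cortex. No tumor overlapped with cortex. The difference of 3.79 ± 0.49 (SE), 13.8-fold, had an adjusted p of 1.25e-07. Its adaptor Clspn had values of 4.90 to 9.23 (median 8.29) in R172H gliomas and 4.92 to 8.59 (median 7.80) in p53-null gliomas, against 3.98, 4.64, 4.19, 4.65 and 4.80 in cortex. It was 3.25 higher without overlap, although the lowest tumors, arrays 58 and 45, came close to the highest cortex. Chek2, the effector kinase of Atm, was 2.22 higher, with 19 of 22 gliomas above every cortex. Of the upstream kinases, Atr was 1.51 higher and Atm 0.44 higher, and in Atm 15 of 22 gliomas exceeded every cortex. A second probe set of Atm, of nearly equal signal, gave 1.12. In the break-sensing complex, the nuclease Mre11a was 1.83 higher, with cortex values of 4.62, 4.76, 5.07, 4.47 and 5.31 below every glioma, and Nbn, which recruits Atm, 0.47 higher, while Rad50 differed by 0.40 (adjusted p = 0.0663). The other probe set of Mre11a gave 0.10 and did not pass, and Rad50 passed without the neuron-rich gliomas (0.44, adjusted p = 0.0411) and with array weights. Mdc1, the adaptor at marked breaks, was 1.53 higher, and the histone H2ax, whose phosphorylated form marks breaks, was 1.46 higher, with 21 of 22 gliomas above every cortex in both.

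End joining was split. Both Ku subunits rose, Xrcc6 by 1.35 ± 0.22 (SE, adjusted p = 5.52e-06) and Xrcc5 by 0.96 ± 0.28 (SE, adjusted p = 0.00449). Xrcc6 had values of 6.97 to 9.23 (median 8.06) in R172H gliomas and 6.92 to 8.54 (median 7.87) in p53-null gliomas, against 6.80, 6.68, 6.69, 6.35 and 6.79 in cortex, with no overlap. The kinase subunit Prkdc and the ligase Lig4, which act after Ku, did not pass: their differences were -0.34 (95% interval -0.73 to 0.05) and -0.07 (95% interval -0.62 to 0.48). Prkdc was close to constant in the 5 cortices, 7.06 to 7.19, and spread between 5.96 and 7.68 in gliomas. Lig4 reached 9.73 in array 50 and 8.99 in array 54, both R172H gliomas, and was lower in every other array.

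Both mismatch repair genes rose. Msh6, a subunit of the complex that recognizes mismatches, had values of 8.25 to 10.12 (median 8.92) in R172H gliomas and 7.37 to 9.84 (median 8.83) in p53-null gliomas, against 7.86, 7.69, 7.83, 7.84 and 7.93 in cortex. Only arrays 38 and 45 among the 22 gliomas did not exceed every cortex, and the difference was 1.04 ± 0.27 (SE, adjusted p = 0.00143). Pms2, which acts after mismatch recognition, was 0.52 higher (adjusted p = 0.033). Mgmt, the alkyltransferase, had values of 5.46 to 6.47 (median 5.74) in R172H gliomas and 5.89 to 6.62 (median 6.12) in p53-null gliomas, against 5.95, 5.82, 5.65, 5.90 and 6.03 in cortex. The groups overlapped throughout, and the difference was 0.13 with a 95% interval of -0.19 to 0.45 (adjusted p = 0.535).

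All 4 genes of base excision and single-strand break repair rose. Ung, which removes uracil from DNA, had values of 6.18 to 10.27 (median 7.82) in R172H gliomas and 4.95 to 9.40 (median 7.66) in p53-null gliomas, against 4.63, 4.50, 4.45, 4.47 and 4.60 in cortex. Every glioma lay above every cortex, the closest being array 45. The difference was 3.26 ± 0.46 (SE), 9.57-fold, with an adjusted p of 5.95e-07. Parp1, the sensor of strand breaks (1.14), the endonuclease Apex1 (1.03) and the scaffold Xrcc1 (0.88) differed less.

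**Figure D2:**
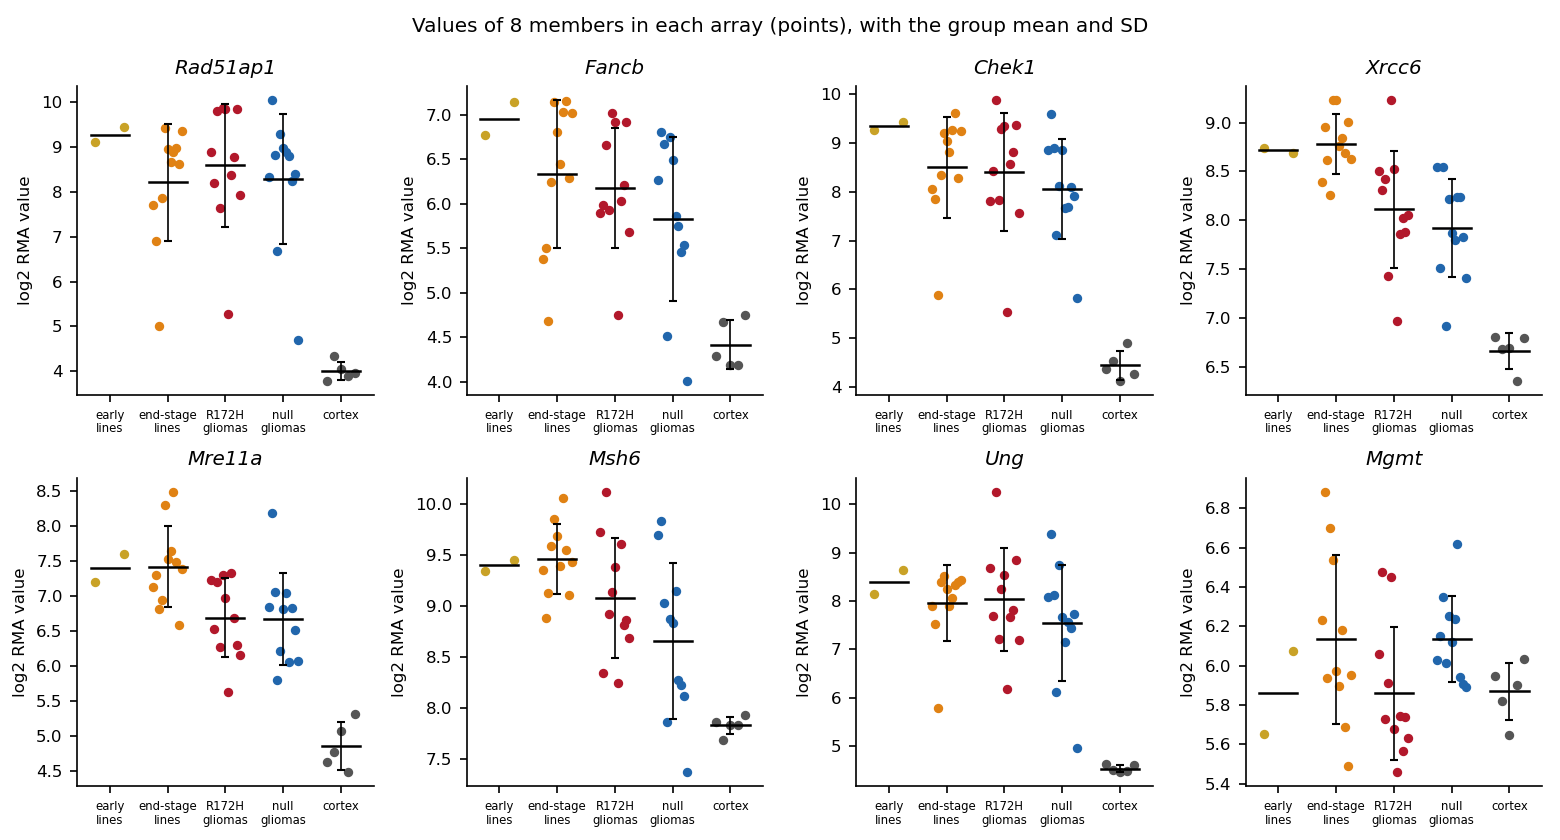
Log2 RMA values (y axis) of 8 members in each array (points) by group (x axis), with the group mean (line) and SD (bar; none for the 2 early biopsy lines). Rad51ap1, Chek1, Xrcc6, Mre11a and Ung show no overlap between gliomas and cortex, and Mgmt overlaps in every group.

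The mean of 16 members in cortex, among them Rad51ap1, Exo1, Brca1, Chek1, Clspn and Ung, lay below the lowest array median (5.24), a level at which weak and absent expression look alike, so these fold changes depend on the background of the probes. The means of Bard1 and Brip1 lay below this level in every group. So did those of Xrcc3 in both glioma groups and of Rad54b in p53-null gliomas. Probe sets of 1 gene also differed: the 4 of Brca1 gave differences of 3.49, 1.59, 1.34 and 0.04 in gliomas, while the 4 of Rad51ap1 all passed in the same direction. The only other probe set of Fanca, Fancb, Fanci, Fancl, Mre11a and Xrcc6 did not pass, nor did 2 of the 4 others of Chek1. Of the 39 members, 22 had several probe sets, and the other 17 could not move when probe sets were averaged. On averaging, 13 of the 32 differences moved by over 1.5 times, all in genes with several probe sets. Of these 13, 12 still passed, all but Fancc. Brca1 then differed by 1.62, Chek1 by 1.70, Exo1 by 2.18 and Rad54l by 1.98. Fancb differed by 0.996, Mre11a by 0.97 and Xrcc6 by 0.66, all smaller than with the chosen probe set, while Atm differed by 0.78, which is more. Rad51ap1 differed by 3.46. Of the 32 calls, 26 held under every alternative at the same threshold in which the gene was tested, and Brip1, Fancc, Fancd2, Atm, Nbn and Pms2 lost theirs under at least 1. Atm and Pms2 lost theirs under several, among them cyclic loess, only the compared groups and the methods' t-test, so their calls are not settled.

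Of 118 other genes of repair and checkpoint pathways, 74 were higher in gliomas and 5 were lower, and their median difference was 0.61. They include nucleotide excision repair (16 genes) and translesion synthesis (11 genes), pathways that hold no member. In homologous recombination 14 of 22 were higher, led by the nuclease Dna2 (3.46) and 1 was lower. Higher genes numbered 9 of 11 in the Fanconi anemia pathway, led by the ubiquitin-conjugating enzyme Ube2t (3.72), 14 of 25 in the checkpoint with 1 lower, led by the phosphatase Cdc25c (3.27), 12 of 19 in base excision repair, led by the ligase Lig1 (1.96), and 5 of 9 in end joining with 1 lower. Of the 3 other mismatch repair genes 2 were higher and 1 was lower. Both other direct reversal genes were higher, with a median of 1.64, beside Mgmt, which did not pass. Nucleotide excision repair had 9 of 16 higher with a median difference of 0.47, and translesion synthesis had 7 of 11 higher and 1 lower.

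The end-stage lines, compared with the same 5 cortices, gave 32 members higher and 0 lower, against 25.5% of all genes higher and 24.3% lower, with a median of 1.63. Every line exceeded every cortex in 23 of 39 members, against 16.1% of all genes. Rad51ap1 had values of 5.01 to 9.43 (median 8.66) in lines, 18.4-fold above cortex, Chek1 5.89 to 9.61 (median 8.81), 16.7-fold above it, and Ung 5.78 to 8.52 (median 8.26), 10.7-fold above it, with array 51 the lowest line in all 3. Exo1 was 3.75 to 8.41 (median 7.42) in lines. Clspn was 5.70 to 8.77 (median 7.95), Fancb 4.68 to 7.16 (median 6.45) and Msh6 8.89 to 10.06 (median 9.43), of which Clspn and Msh6 did not overlap with cortex. The methods' t-test gave 32 members after adjustment, against 52.2% of all genes. In the same comparison 36 of 37 cell cycle genes were higher, and all 22 neuronal genes, 14 of 16 microglia and macrophage markers and all 12 endothelial and pericyte markers were lower; the part of these cells in the member values was not tested. Bard1 (0.91) and Rad50 (0.72), which had not passed in gliomas, passed in lines. Fancc (0.30) and Pms2 (0.37) passed in gliomas and not in lines. Xrcc3, Fancg, Prkdc, Lig4 and Mgmt passed in neither comparison. For Xrcc3 this depends on the probe set in lines too. Without _x_at and _s_at probe sets, which left out the chosen one, it differed by -0.59 in lines (limma, adjusted p = 0.0115). In Mgmt the lines ranged from 5.49 to 6.88 (median 5.97), the widest range of the 5 groups, and 5 of 11 exceeded every cortex. Because both comparisons use the same cortices, their lists are not independent.

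When lines were compared with R172H gliomas, 2 members were higher and 0 lower, against 7.24% of all genes higher and 6.43% lower. The count of higher members was near the share over all genes, so it is not read as a result about the members. Xrcc6 had values of 8.26 to 9.23 (median 8.76) in lines, against 6.97 to 9.23 (median 8.06) in R172H gliomas. The ranges overlapped, but the mean was 8.78 ± 0.31 in lines and 8.11 ± 0.60 in R172H gliomas (SD, n = 11 each), a difference of 0.67 ± 0.19 (SE) with an adjusted p of 0.0153, between 0.00314 and 0.0416 under the alternatives. Mre11a had values of 6.58 to 8.49 (median 7.38) in lines, against 5.63 to 7.33 (median 6.68) in R172H gliomas, and 6 of 11 lines exceeded every R172H glioma. Its difference was 0.73 ± 0.24 (SE) with an adjusted p of 0.037, and this call was lost under 5 alternatives at the same threshold (adjusted p 0.0511 to 0.0632), among them the fit without the neuron-rich glioma. Other probe sets of these genes gave -0.003 for Xrcc6, where the probe set was dim, and 0.19 for Mre11a. The largest difference in the other direction was that of Brca1, at -0.69 with a 95% interval of -1.54 to 0.16 (adjusted p = 0.286). In the same comparison all 16 microglia and macrophage markers and all 12 endothelial and pericyte markers were lower in lines, the score of the microglial list lying between -3.81 and -3.05 in lines and between 0.37 and 2.77 in R172H gliomas. The part of these cells in the member values was not tested. Among the other pathway genes 9 of 118 were higher and 2 lower. Without line array 51, which had the lowest cell cycle score of the lines, 4 members were higher, the others being Bard1 and Fanci, against 6.3% of all genes. The study pairs every R172H tumor with a line grown from it, but the labels do not give the pairs, so the samples were fitted as independent.

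No member differed between R172H and p53-null gliomas at an adjusted p under 0.05, against 0.033% of all genes. At an unadjusted p under 0.05, 3 of 39 members were found, against 11.1% of all genes: Prkdc (0.43, p = 0.0141), Atr (0.43, p = 0.0332) and Mgmt (-0.28, p = 0.0498). That count was not above the share over all genes, so it is not read as a result about the members. Prkdc was 6.14 to 7.68 (median 7.17) in R172H gliomas and 5.96 to 7.17 (median 6.74) in p53-null gliomas, and 6 of 11 R172H gliomas exceeded every p53-null glioma. The largest difference, that of Brca1, was 0.74 with a 95% interval of -0.11 to 1.59, with an adjusted p of 0.525. The sign was positive in 34 of 39 members, against 49.5% of all genes, and in 33 of 37 cell cycle genes, none of which passed. The methods' t-test gave 2 members before adjustment, against 8.9% of all genes, and 0 after it.

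Between the 2 early biopsy lines and the 11 end-stage lines, 0 members passed, as did 0% of all genes, and 0 members had an unadjusted p under 0.05, against 2.83% of all genes. Rad51ap1 was 9.11 and 9.43 in the early lines, against 5.01 to 9.43 in the end-stage lines, a difference of 1.06 with a 95% interval of -0.88 to 2.997. Chek1 was 9.26 and 9.44 in the early lines, against 5.89 to 9.61 in the end-stage lines. In both genes the early lines lay near the upper end of the end-stage range, and array 69 was marginally above it in Rad51ap1. The early lines had 6.77 and 7.14 in Fancb. They had 8.74 and 8.69 in Xrcc6, close to the end-stage median. In Ung the early lines had 8.14 and 8.64, the higher value lying above the highest end-stage line (8.52). In Msh6 they had 9.35 and 9.45, near the end-stage median. Mgmt was 5.65 and 6.08 and Mre11a 7.20 and 7.60, both inside the end-stage range. The methods' t-test gave 0 members before adjustment, against 3.36% of all genes, and 0 after it, and with 2 lines the intervals are wide.

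**Figure D3:**
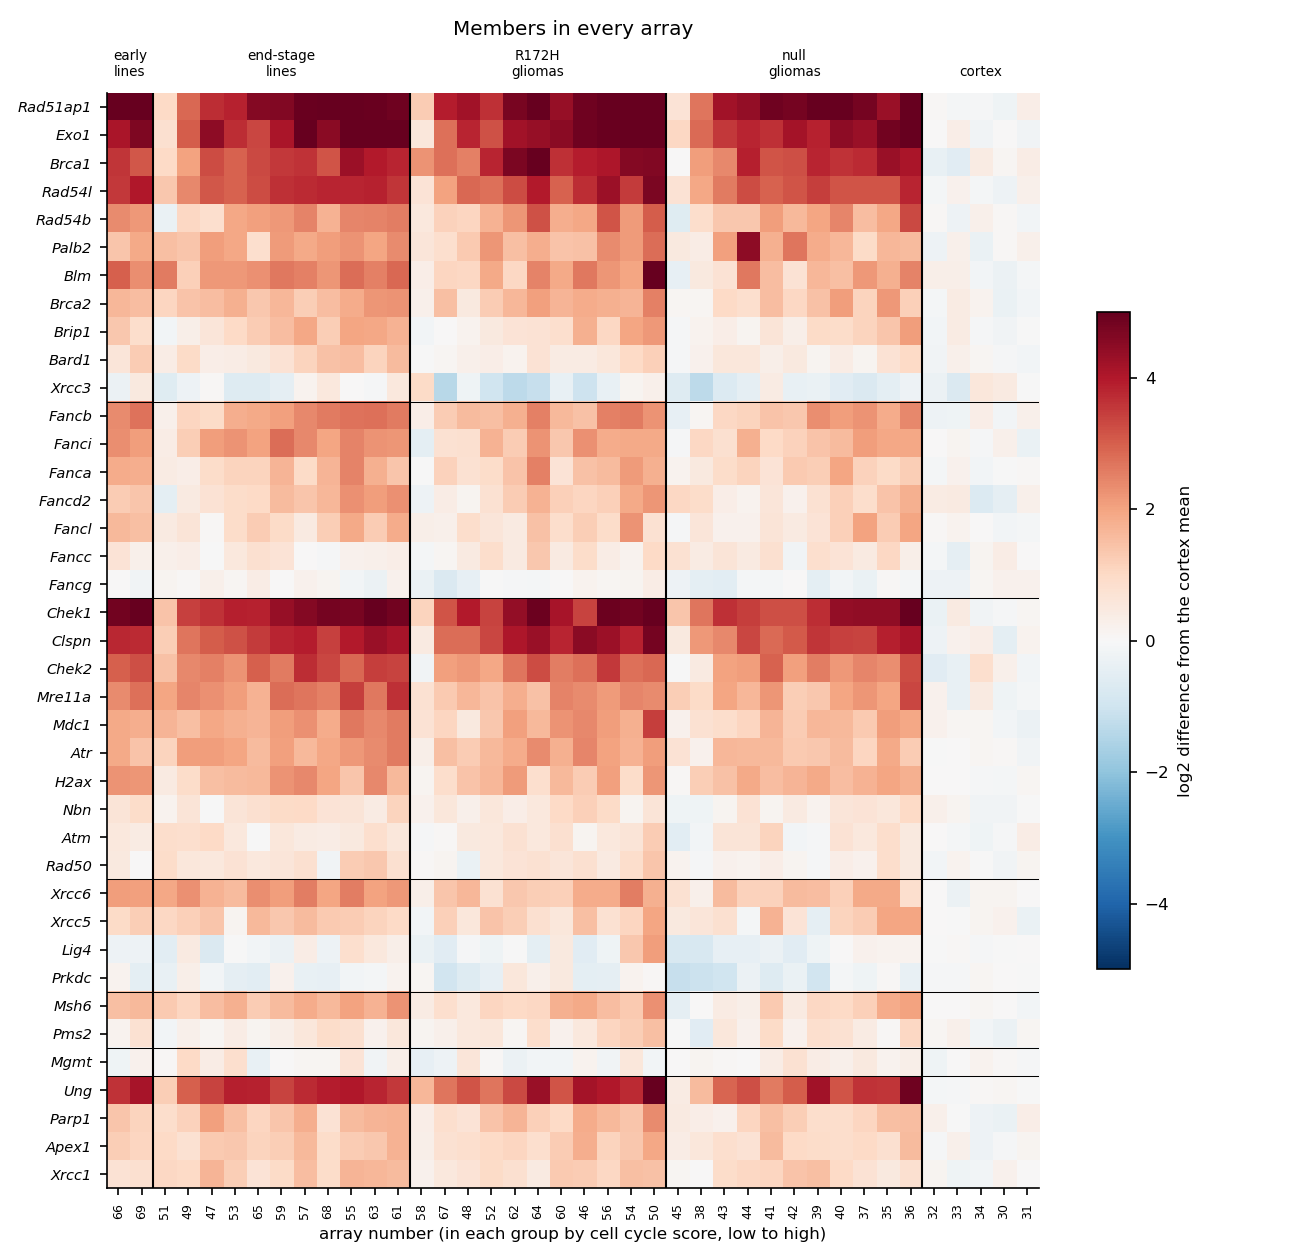
Log2 difference from the cortex mean (color) for the 39 members (rows, by role) in the 40 arrays (columns), ordered within each group by the cell cycle score, low to high; colors are capped at 5. The left columns of each line and glioma group, arrays 51, 58, 45 and 38, are the palest, and Xrcc3, Fancg, Prkdc, Lig4 and Mgmt show no common shift.

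The members differed widely among the gliomas, and in most of them the value followed the cell cycle score of the same tumor. In a regression over the 22 gliomas with genotype as a covariate, 33 of 39 members had a positive slope that passed and 0 a negative one, against 9.37% of all genes with a positive slope. The median slope was 0.37 over the members, 0.18 over the 118 other pathway genes and 0.01 over all genes, in log2 units per unit of score. The steepest were Rad51ap1 (1.16 ± 0.10, SE), Exo1 (1.16 ± 0.06) and Clspn (0.96 ± 0.06), whose values in p53-null gliomas ran from 4.70, 3.99 and 4.92 in array 45 to 10.04, 8.45 and 8.59 in array 36. Chek1 (0.91), Ung (0.88), Brca1 (0.84) and Rad54l (0.81) followed. The lowest were Xrcc3 (-0.05 ± 0.12), Fancc (0.08 ± 0.07) and Mgmt (0.09 ± 0.05), which did not pass, nor did Palb2, Fancg and Prkdc. All 10 checkpoint genes passed, with slopes from 0.19 to 0.96.

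Arrays 45 and 58 had the lowest cell cycle scores of all gliomas, 1.25 and 1.38, as well as high neuron scores, -0.70 and -0.04, and the 2 properties cannot be told apart in them. Array 58 was the lowest R172H glioma in 30 of 39 members, against 18.8% of all genes, and array 45 the lowest p53-null glioma in 25, against 11.6%. Without the 3 neuron-rich gliomas, 20 members passed, against 2.57% of all genes. The slope of Exo1 was then 1.36, that of Clspn 0.92 and that of Rad51ap1 0.95, and those of Mgmt and Fancc were 0.02 and 0.10, neither of them passing. With the neuron score as a covariate 25 members passed, against 6.06% of all genes. Within the R172H gliomas alone 23 passed, against 4.12%, and within the p53-null gliomas alone 16, against 3.02%. In all, 13 of the 33 kept their call under each of these and the other alternatives. At the upper end, array 50 was the highest R172H glioma in 22 members, among them Blm (10.53), Exo1 (9.02) and Ung (10.27), against 17.6% of all genes, and array 36 the highest p53-null glioma in 18, against 14% of all genes. In these 2 arrays the score of the oligodendrocyte progenitor markers was -2.72 and -1.24, against a median of 2.69 over all gliomas; the part of this in the member values was not tested. Leaving out array 50 gave 29 members, against 9.28%. A value apart from this order was that of Palb2 in array 44, a p53-null glioma with a cell cycle score of 3.95, where it reached 9.14, against at most 7.43 in every other array.

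**Figure D4:**
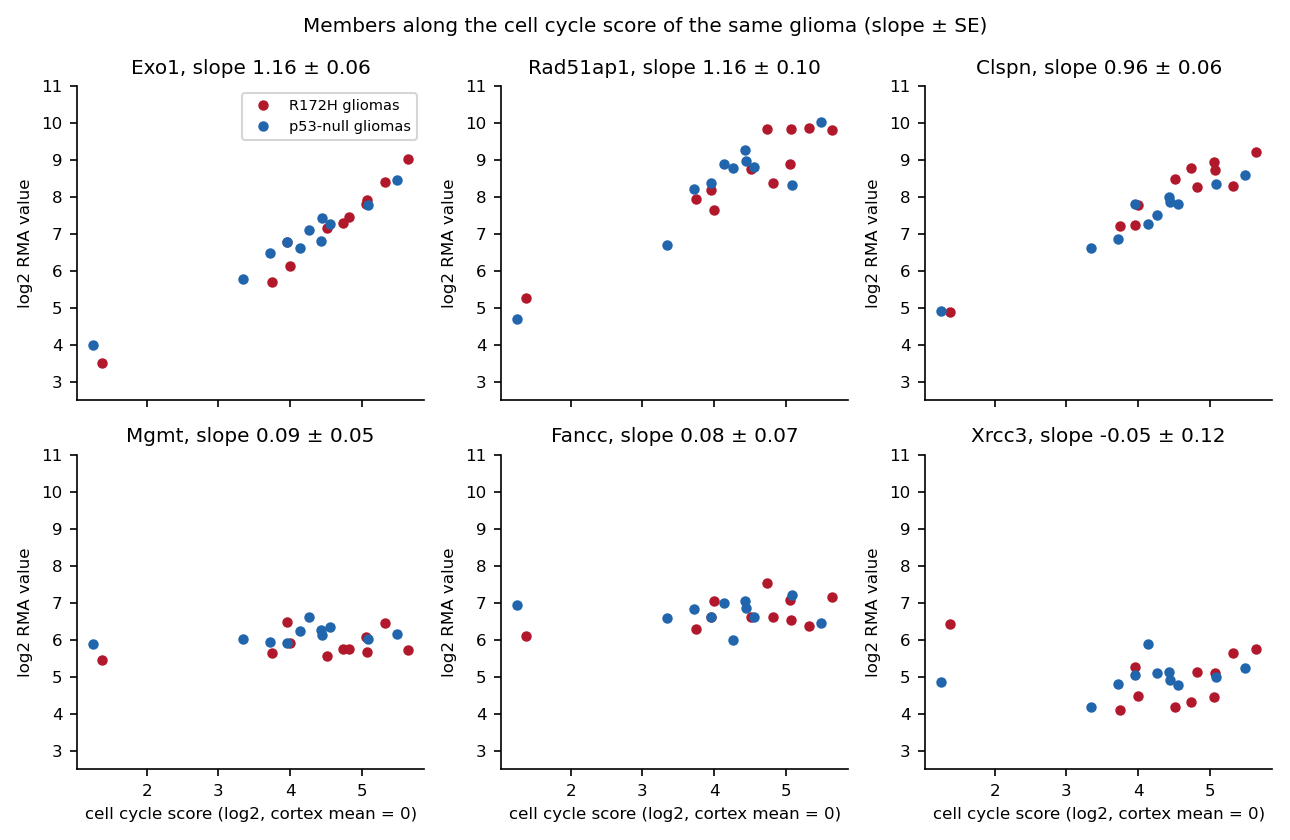
Log2 RMA values (y axis) of the 3 members with the steepest slopes (top) and the 3 with the lowest (bottom) against the cell cycle score (x axis, median log2 difference of 37 cell cycle genes from the cortex mean) in 11 R172H and 11 p53-null gliomas (points). Exo1, Rad51ap1 and Clspn climb by about the same amount as the score, and the 2 points at its low end are arrays 45 and 58.

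Promoters of the members are shown because so many rose together. RefSeq promoters (GRCm38.p6, 250 bases before to 50 after the start) were matched by symbol for 32 members, 3 of them with several promoters. The words TTTCCCGC, TTTCGCGC, TTTGCCGC and TTTGGCGC, the consensus bound by E2F factors, which drive genes of the start of replication, were searched on both strands, a search chosen after the values had been seen. A word was found in 8 of the 32 members, against 2.6% of all genes, and in 2.26% of all promoters of this length. Every word holds a CpG dinucleotide, and member promoters had a median of 21 of these, against 7 over all promoters. The shares are therefore not a like comparison. These 8 were Clspn, Chek2, Brca2, Xrcc6, Msh6, Mdc1, Bard1 and Fancg, of which 6, all but Bard1 and Fancg, were higher in gliomas, beside 32 of all 39 members, so that no relation between the word and the difference is read from them. The word, in capitals, is given with up to 50 bases on each side, read along the gene's strand. Rad51ap1, which had the largest difference and no exact match, is given by the last 110 bases of its promoter. Only exact matches were searched, and its stretch holds gcgggaat, which differs from GCGGGAAA by 1 base.
Clspn, chr4:126556951-126557029, plus strand: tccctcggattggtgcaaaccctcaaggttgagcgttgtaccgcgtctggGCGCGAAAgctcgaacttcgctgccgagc
Chek2, chr5:110839781-110839888, plus strand: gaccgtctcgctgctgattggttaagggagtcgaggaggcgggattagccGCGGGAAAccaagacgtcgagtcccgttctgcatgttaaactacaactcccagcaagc
Brca2, chr5:150522403-150522510, plus strand: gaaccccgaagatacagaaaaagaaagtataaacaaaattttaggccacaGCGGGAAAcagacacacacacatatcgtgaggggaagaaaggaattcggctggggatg
Xrcc6, chr15:82016273-82016380, plus strand: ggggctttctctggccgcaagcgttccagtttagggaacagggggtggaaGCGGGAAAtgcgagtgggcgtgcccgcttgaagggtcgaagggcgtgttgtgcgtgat
Msh6, chr17:87975015-87975099, plus strand: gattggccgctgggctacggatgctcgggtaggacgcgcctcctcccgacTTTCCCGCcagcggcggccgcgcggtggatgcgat
Mdc1, chr17:35841432-35841539, plus strand: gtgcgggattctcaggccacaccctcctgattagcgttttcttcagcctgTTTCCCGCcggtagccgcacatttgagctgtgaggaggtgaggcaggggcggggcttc
Bard1, chr1:71103124-71103222, minus strand: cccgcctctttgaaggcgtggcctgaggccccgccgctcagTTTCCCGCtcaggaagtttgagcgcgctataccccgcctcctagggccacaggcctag
Fancg, chr4:43010296-43010403, minus strand: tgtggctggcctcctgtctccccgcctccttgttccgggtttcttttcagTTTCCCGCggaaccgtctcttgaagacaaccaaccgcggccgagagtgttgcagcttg
Rad51ap1, chr6:126939538-126939647, minus strand: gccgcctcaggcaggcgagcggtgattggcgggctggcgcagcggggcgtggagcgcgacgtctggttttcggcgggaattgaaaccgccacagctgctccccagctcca

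The word began 16 bases before the start in Mdc1, 46 in Xrcc6, 52 in Fancg, 152 in Chek2, 168 in Brca2 and 209 in Bard1, and at base 22 after it in Clspn and base 16 in Msh6. On the gene's strand the letters read GCGGGAAA in Chek2, Brca2 and Xrcc6 and GCGCGAAA in Clspn, the reverse complements of 2 of the words. Exo1, Rad54b, Fancd2, H2ax, Nbn, Rad50 and Prkdc had no entry. The member promoters were rich in CpG, with a median of 21 CpG dinucleotides (3 to 37), against 7 over all promoters and the fewest, 3, in Fancl and in a promoter of Mgmt. A match of letters is a description of the sequence and not a measured binding site.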

How the data were processed

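Total RNA of 40 samples was hybridized to Affymetrix mouse genome arrays. The deposited values were made by the authors with background correction, quantile normalization and RMA and are log2 values, the log base being inferred from their range (2.00 to 14.47); array medians were 5.24 to 5.47. The number of arrays limits the precision. No tool version was given in the sources used here.

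Of 45101 probe sets, 64 controls were left out and 34945 named 1 gene; 932 named several, and the annotation used lacked 9160. Where several probe sets named a gene, the one with the greatest mean signal across the 40 arrays stood for it (18193 genes). Groups were taken from the labels. limma 3.58.1 (R 4.3.3) was fitted to all 40 arrays with 5 groups, with Benjamini-Hochberg adjustment over all genes, and to the 22 gliomas for the cell cycle slope; the script was tested on simulated data. Tables and figures were made with Python 3.11.15. The labels do not say whether samples of a group were from separate mice, so the p-values cover only sample-to-sample spread, which may be technical; no batch was given. Full values were given for the member with the largest difference in gliomas per role, members that passed against the direction of most of their role (none), up to 3 that passed in each direction in lines against R172H gliomas, and the 3 steepest and 3 lowest slopes. The members and gene lists were chosen with earlier results of these data known. Alternatives were the probe set rule, a filter on dim genes, fewer groups in the model, cyclic loess, array weights, trended moderation, the methods' t-test, a threshold of 0.01, and samples left out.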

Additional observations from a re-analysis of the deposited data

Results flagged for a closer look

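One value stood apart from the others of its group. Xrcc6 was 6.35 in the cortex of array 33, a Cre-negative mouse, against 6.68 to 6.80 in the other 4 cortices, a gap of 0.726 of the range of the 5 cortices. This was 1 of 39 members, and 5.05% of all genes had such a cortex, which is close to the 1 in 20 expected by chance. Without this cortex Xrcc6 was still higher in gliomas. The groups of 11 and of 2 samples were not examined in this way.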

How the results depend on the processing

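Across all alternatives no member that passed changed its direction, and 51 sign changes concerned differences that passed under neither setting. The count of members higher in gliomas than in cortex was 26 with the 3 Cre-positive cortices alone, 27 to 30 when each cortex was left out in turn and 22 of 24 members tested with a filter on dim genes. With that filter the median difference over all genes was 0.17, against -0.03 in the main fit. Where no share of all genes was given above for a setting, none was counted, and the count describes the members alone. That of members lower was 1 after averaging probe sets and 1 without _x_at and _s_at probe sets (Xrcc3 in both), and 2 with array weights (Xrcc3 and Prkdc). In lines against cortex 1 member, Xrcc3, was lower without _x_at and _s_at probe sets, and 31 to 32 were higher when each cortex was left out. In lines against R172H gliomas the 2 higher members became 1 with the mean of all probe sets, with the filter on dim genes, with only the compared groups, with cyclic loess, with the methods' t-test and without the neuron-rich glioma, 4 with array weights, 4 without line array 51 (chosen after seeing the data) and 0 at an adjusted p under 0.01. In R172H against p53-null gliomas the methods' t-test gave 2 members at an unadjusted p under 0.05 and 0 after adjustment. Of the positive slopes, 20 passed without neuron-rich gliomas and 16 within p53-null gliomas with 11 tumors (chosen after seeing the data). Where the cause is not given by fewer samples or genes, it was not tested. No paired analysis was possible because the labels do not say which line came from which tumor. Low signal limits 16 members in cortex (mean below the lowest array median), and Bard1, Brip1, Xrcc3 and Rad54b in some glioma or line groups too.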
